A study of Mus musculus and Rattus norvegicus with 2 samples.

Results

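Mitochondrial tRNA fragments were described in small RNAs of sperm from the cauda epididymis, where sperm are held at the far end of the epididymal duct. The members are the sequences that match the mitochondrial tRNA genes on the sense strand, and 8 of the 22 genes were chosen from their read counts in these same libraries: mt-Th, mt-Tq, mt-Ts1, mt-Tv, mt-Tm, mt-Tk, mt-Tg and mt-Ta, which carry histidine, glutamine, serine, valine, methionine, lysine, glycine and alanine. In the mouse library, 439 of 89179 listed sequences were members, with 2724 of 691381 listed reads. In the rat library, 1106 of 137388 listed sequences were members, with 38339 of 2102735 listed reads. The mice were C57BL/6, aged 2 months. The rats were Sprague Dawley young adults weighing 450 g. The labels name no treatment for either, and they call the sperm purified. The number of animals in each library was not given in the sources used here. Mouse sequences had to match the mouse gene exactly, with the 3′ CCA allowed. No rat reference was used here, so rat sequences were matched to the mouse genes with edits at up to 15% of their bases and given to the nearest mitochondrial gene.

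There was 1 library per species, so there was no replicate error and no test was made. Intervals are 95% and exact, Poisson for counts and Clopper-Pearson for shares. They cover counting error only, because PCR can copy one molecule into several reads. Species and library cannot be told apart, and in such samples fewer cells of a type and less RNA per cell cannot be told apart either. The miRNAs that mark sperm and germ cells all had reads in both libraries (5 of 5). They summed to 385 reads in the mouse (1.68% of its miRNA reads) and 6780 in the rat (26.6%). Epithelial markers (5 of 5 with reads in both) summed to 606 (2.65%) and 288 reads (1.13%). Stromal and muscle markers (3 of 3 in both) summed to 2412 (10.5%) and 843 (3.31%), so in the mouse they exceeded the sperm markers. Blood markers summed to 42 reads in the mouse, with miR-150-5p and miR-223-3p at 0, and to 3 in the rat, with miR-451a, miR-486-5p and miR-223-3p at 0. The part of other cells in the fragments was not tested.

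Mitochondria translate their own few mRNAs with a dedicated set of tRNAs encoded in the mitochondrial genome. The genome is transcribed from both strands into long precursors, from which the tRNAs are cut out at both ends. CCA, the site of the amino acid, is then added to the 3′ end, and many bases are chemically modified. Cuts in or near the anticodon loop of a tRNA leave 5′ and 3′ fragments, and fragments of nuclear tRNAs are an abundant small RNA class of mature sperm. The mitochondria of sperm sit in the midpiece of the tail.

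The 4 mouse genes with the most reads are shown first, because they differ in which part of the tRNA was read. The most abundant mouse fragment of each stands in capitals in the gene sequence of GENCODE M21 (build GRCm38), written 5′ to 3′ in DNA letters. The gene mt-Th lies at chrM:11546-11612 on the plus strand and mt-Tv at chrM:1025-1093 on the plus strand. The genes mt-Tq at chrM:3772-3842 and mt-Ts1 at chrM:6870-6938 lie on the minus strand. All are single-exon tRNA genes.
mouse mt-Th gene: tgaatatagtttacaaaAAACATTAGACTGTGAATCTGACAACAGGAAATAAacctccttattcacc
mouse mt-Tq gene: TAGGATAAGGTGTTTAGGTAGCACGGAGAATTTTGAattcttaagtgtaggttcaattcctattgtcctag
mouse mt-Ts1 gene: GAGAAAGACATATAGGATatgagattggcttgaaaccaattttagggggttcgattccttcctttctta
mouse mt-Tv gene: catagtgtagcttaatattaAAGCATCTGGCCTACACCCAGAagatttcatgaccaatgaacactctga
The leading mt-Th fragment covered bases 18 to 52 and lacked both ends of the tRNA. The leading mt-Tq fragment began at the first base and stopped at base 36. The mt-Ts1 fragment was the first 18 bases, and the leading mt-Tv fragment covered bases 21 to 42.

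The leading rat fragments are shown with the bases that differ from the mouse gene in capitals, because the mt-Tq fragments carry most of the rat reads and the others are the most abundant of their genes. Positions are counted from the first base of the mouse gene, and the mouse base is written first.
rat mt-Tq, 32 nt, 11851 reads: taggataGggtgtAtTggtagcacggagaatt
rat mt-Tq, 30 nt, 6077 reads: taggataGggtgtAtTggtagcacggagaa
rat mt-Tq, 29 nt, 2576 reads: taggataGggtgtAtTggtagcacggaga
rat mt-Tm, 30 nt, 542 reads: agtaaggtcagctaaCtaagctatcgggcc
rat mt-Tm, 31 nt, 533 reads: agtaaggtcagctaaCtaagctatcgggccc
rat mt-Tv, 22 nt, 57 reads: aagcatctggcctacacccaga
rat mt-Ta, 24 nt, 20 reads: gaggATttagcttaattaaagcaG
rat mt-Ts1, 28 nt, 11 reads: gagaaagacataATggTtatgaAattgg
The rat mt-Tq fragments carry A8G, T14A and A16T, those of mt-Tm carry T16C and those of mt-Ta carry T5A, C6T and A24G. The rat mt-Ts1 fragment carries T13A, A14T, A17T and G23A. The leading rat mt-Tv sequence is the same as the leading mouse one. Of the 1106 rat sequences, 27 were also listed in the mouse among its 798 sequences within the same edit limit, which is 2.44% of the rat and 3.38% of the mouse sequences.

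Mitochondrial tRNA fragments made up 0.394% of the listed mouse reads (interval 0.379 to 0.409). They made up 1.82% of the listed rat reads (1.81 to 1.84). With the rat's edit limit applied to the mouse as well, the mouse share was 0.477%. The intervals do not overlap under either rule. The order turned under stricter rules: with at most 2 mismatches to the mouse gene the shares were 0.472% for the mouse and 0.105% for the rat, and with exact matches the rat share was 0.0170%. With tRNA or mitochondrial labels only, they were 0.335% and 0.0596%. In the mouse, where the whole mitochondrial set of 37 genes could be matched exactly, 2724 of 41766 mitochondrial reads were from tRNAs (6.52%), against 38961 from rRNAs and 81 from protein-coding genes. No mouse member sequence was found in a nuclear transcript of GENCODE, and 46 reads were part of reads that the authors assigned to a tRNA entry from a genomic clone or shotgun contig. Of the rat member reads, 98.6% shared 18 bases in a row with a rat read that carries a mitochondrial label. For rat mt-Ty, which is not among the 8 listed genes, 2 of 217 reads did (0.922%).

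The gene with the most reads differed between the libraries. In the mouse, mt-Th led with 1562 reads (57.3% of the mitochondrial tRNA reads), before mt-Tq with 571 (20.96%), mt-Ts1 with 367 (13.5%) and mt-Tv with 54 (1.98%). The intervals of these neighbours in the order do not overlap. The mouse counts of mt-Tg (28), mt-Tk (22), mt-Tm (18) and mt-Ta (13) have overlapping intervals. In the rat, mt-Tq led with 35411 reads (92.4%), before mt-Tm with 1608 (4.19%), mt-Tv with 468 (1.22%) and mt-Th with 425 (1.11%). The rat counts of mt-Tv and mt-Th have overlapping intervals, and so do those of mt-Ts1 (21) and mt-Tk (15), while mt-Ta had 64 reads and mt-Tg had 2. These counts are what the genes were chosen from and are given as a description.

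As a share of listed reads, mt-Th stood at 0.226% for the mouse and 0.0202% for the rat. The gene mt-Tq stood at 0.0826% for the mouse and 1.68% for the rat, and mt-Tm at 0.00260% and 0.0765%. The gene mt-Ts1 stood at 0.0531% for the mouse and 0.000999% for the rat, where it rests on 21 reads. Counted by the rat's own first 18 bases with at most 2 mismatches, rat mt-Ts1 had 94 reads (0.00447%, interval 0.00361 to 0.00547). The remaining listed genes spanned 0.00188 to 0.00781% in the mouse library and 9.5e-05 to 0.0223% in that of the rat. By these unlike rules, exact for the mouse and with edits for the rat, shares of mt-Th and mt-Ts1 were higher in the mouse. Shares of mt-Tq and mt-Tm were higher in the rat, and each difference exceeded the counting error. With the rat's edit limit in both libraries the order was the same, with mt-Tq at 0.119% for the mouse. With exact matches in both, the order turned for mt-Tq and mt-Tm, at 0.000285% and 0.000333% for the rat. The genes were chosen from these same counts, so the differences are given as a description.

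**Figure D1:**
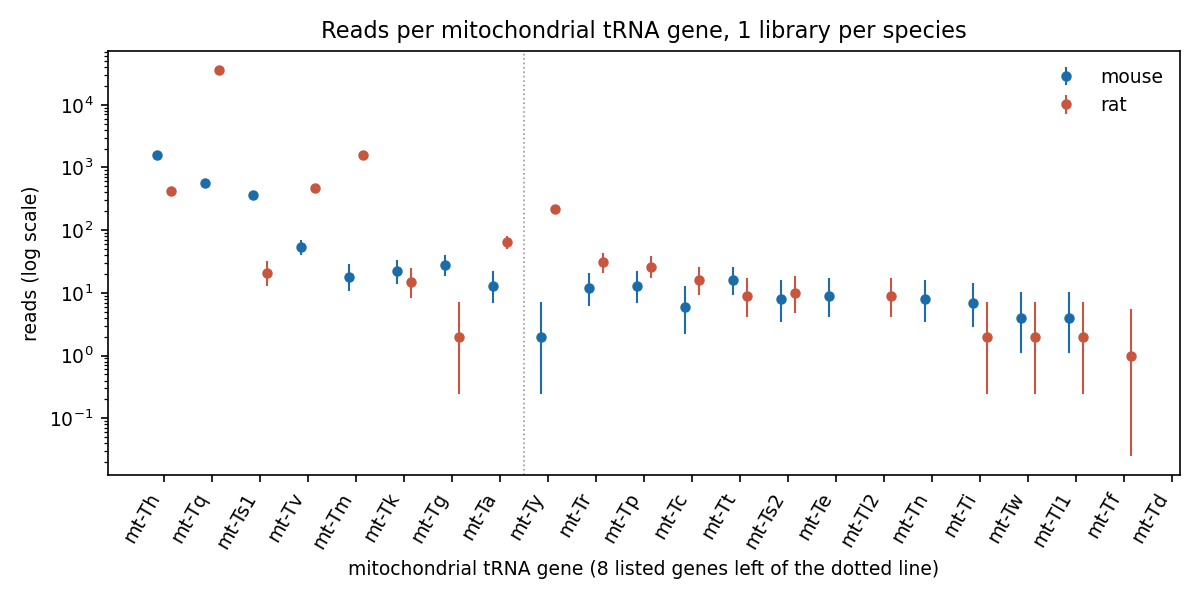
Reads of each of the 22 mitochondrial tRNA genes in the mouse (blue, exact matches) and rat (red, edits of up to 15%) library, on a log axis, with exact 95% Poisson intervals; genes at 0 reads have no point. The mouse points are led by mt-Th with 1562 reads and the rat points by mt-Tq with 35411, and right of the dotted line only rat mt-Ty, with 217 reads, stands above 31.

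The 8 listed genes held 2635 mouse reads (96.7% of those on all 22 genes) and 38014 rat reads (99.2%). The other 14 genes together held 89 mouse and 325 rat reads, and 3 of them were at 0 in each library. A count of 0 allows up to 0.000434% of listed mouse reads and 0.000143% of listed rat reads. The highest of them was mt-Ty, the tyrosine tRNA, with 217 reads in the rat and 2 in the mouse. Others from 10 reads in either library were mt-Tr (12 mouse and 31 rat reads), mt-Tp (13 and 26), mt-Tc (6 and 16), mt-Tt (16 and 9) and mt-Ts2 (8 and 10). The choice does not strictly follow the higher count of each gene. Of the listed genes, mt-Tk had 22 and mt-Tg 28 reads in their higher library. Among those not listed, mt-Ty had 217, mt-Tr 31 and mt-Tp 26.

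Most rat reads of these genes did not carry a tRNA label in the deposited table. Of the rat reads, 96.7% were assigned to mRNA entries, 1.74% to tRNA entries and 1.53% to mitochondrial entries. Of the mouse reads, 83.6% were assigned to tRNA entries, 14.1% to mRNA entries and 1.47% to mitochondrial entries. The mouse mRNA labels were nearly all on mt-Ts1, with 367 of 384 reads, and the rat mRNA labels were mostly on mt-Tq, with 35219 of 37075. All 18 mouse mt-Tm reads but 1 carried a piRNA label.

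The fragments were taken from different parts of the tRNA. In the mouse library, 36.4% began at the 5′ end of the gene, within 1 base of its first base (interval 34.6 to 38.2). In that of the rat, 97.3% did (97.1 to 97.5). The position of the last base was past the midpoint of the gene in 74.1% of the mouse reads. In the mouse, the 8 genes encoded on the minus strand (the light-strand genes, mt-Tq, mt-Ts1 and mt-Ta among them) had 94.8% of 989 reads at the 5′ end, and the 14 plus-strand genes had 3.05% of 1735 reads there. In the rat, the shares were 99.2% of 35755 and 71.7% of 2584 reads. The light-strand genes took 36.3% of reads in the mouse library and 93.3% in the rat library. These group values follow the genes with the most reads, mt-Th and mt-Tq above all.

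The histidine tRNA mt-Th gave internal fragments in the mouse. Of its 1562 reads, 57.0% began at bases 14 to 18 and 11.3% at bases 23 and 24, while 0.960% began at base 1 or 2. Their last bases fell at 50 to 52 in 37.3% and at 58 to 60 in 30.4% of the reads. The anticodon at bases 30 to 32 was inside 97.1% of them. These reads therefore covered the middle of the tRNA, across the anticodon loop. No single sequence held most of the reads: the 233 sequences were led by one with 244 reads (15.6%), and the next had 91 and 89.
mouse mt-Th, bases 18 to 52, 244 reads: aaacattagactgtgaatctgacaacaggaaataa
mouse mt-Th, bases 24 to 58, 91 reads: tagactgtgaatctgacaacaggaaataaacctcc
mouse mt-Th, bases 16 to 58, 89 reads: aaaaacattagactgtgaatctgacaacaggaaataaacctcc
The first and the second of these have the same length of 35 nt and are shifted along the gene. Lengths of 35 nt (493 reads, 31.6%) and 43 nt (252 reads, 16.1%) were the most frequent.

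In the rat, mt-Th gave 5′ fragments. Of 425 rat reads, 79.8% began at base 1 or 2 of the gene, 10.8% at bases 14 to 18 and 0.471% at bases 23 and 24. The last base fell at 50 to 52 in 6.12% and at 58 to 60 in 0.471%, and the anticodon was inside 76.2%. The leading rat sequence had 68 reads and 34 nt. With the mouse read by the rat's edit limit, 3.19% of 1785 mouse mt-Th reads began at base 1 or 2. Of the 32 rat reads that match the mouse mt-Th gene exactly, 0 began there, since the rat 5′ end differs from the mouse gene.

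**Figure D2:**
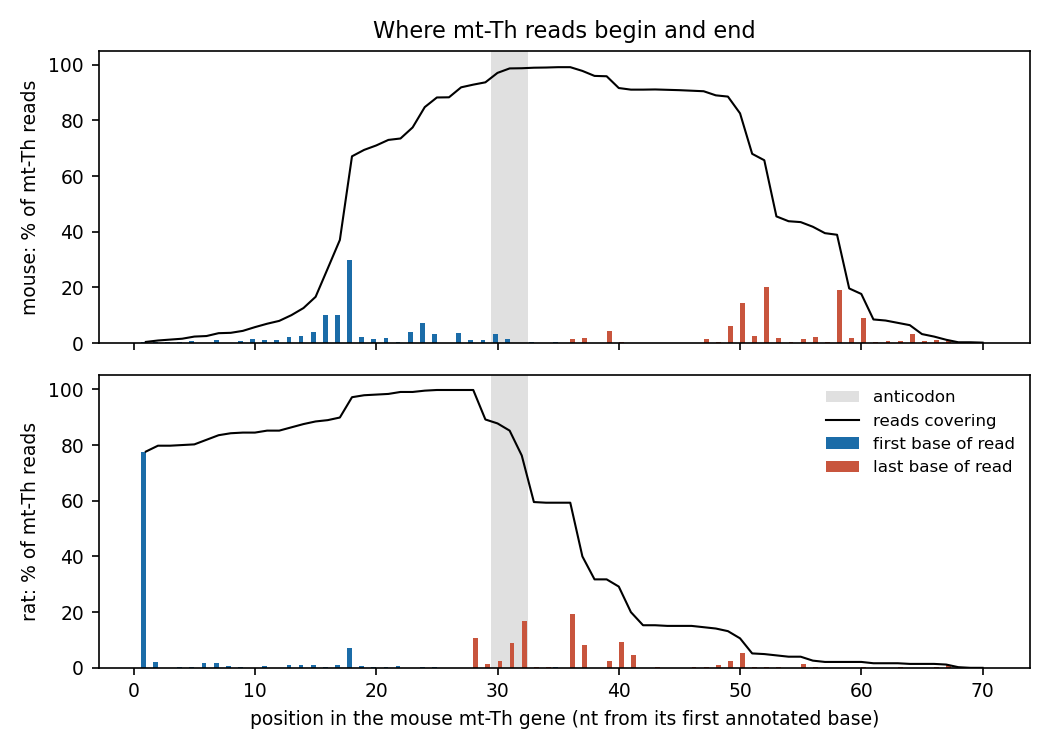
Share of mt-Th reads with their first base (blue bars) or last base (red bars) at each position of the mouse gene, and share covering it (line), in the mouse and the rat library; the grey band is the anticodon. Mouse reads begin mainly at bases 14 to 18 (57.0%) and rat reads at the 5′ end (79.8%).

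Histidine tRNAs carry an extra G before the first base of the usual tRNA fold, which in nuclear tRNAs is added after transcription by THG1L. The 5′ ends of mt-Th were examined for it. The gene model begins at 11546, and the tRNA entry that the authors matched begins 1 base earlier, with a G. Of 331 rat reads that reach the 5′ end with the next 8 bases intact, 327 began with GG (98.8%, interval 96.9 to 99.7) and 4 with G. The first of these bases differed from the sequence the authors matched: 329 of 339 rat 5′ reads have G where the deposited entry has T. The leading rat sequence is shown with that G in capitals.
rat mt-Th, 34 nt, 68 reads: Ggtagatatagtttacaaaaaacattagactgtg
In the mouse, 28 reads of the edit limit reached the 5′ end with those bases intact, of which 18 began with G, 9 without it and 1 with GG. The extra base was thus in nearly all rat reads and in 1 of 28 mouse reads (3.57%, interval 0.0904 to 18.3). Whether a mouse read with the extra base could be listed depends on the entries of the authors' databases and was not tested.

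The glutamine tRNA mt-Tq gave 5′ fragments in both libraries, of different length. Of the mouse reads, 97.0% began at the 5′ end, and of the rat reads 99.2%. In the rat, 14174 reads had 32 nt and 7216 (20.4%) had 30 nt, with quartiles at 30 and 32 nt. In the mouse, the lengths were spread over 36 nt (82 reads), 22 nt (78), 39 nt (65) and 32 nt (49). The last base fell before the anticodon loop (bases 31 to 37) in 30.5% of mouse and 34.4% of rat reads. It fell in the loop in 40.1% of mouse reads (36.1 to 44.3) and in 59.4% of rat reads (58.9 to 59.9). Beyond the loop it fell in 29.4% and 6.23%. The anticodon at bases 33 to 35 was inside 53.8% of mouse and 15.5% of rat reads. A larger share of the mouse reads therefore reached past the anticodon loop. The mouse lengths were also more widely spread on the short side, with quartiles at 27 and 38 nt.
mouse mt-Tq, 36 nt, 82 reads: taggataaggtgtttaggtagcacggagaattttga
mouse mt-Tq, 22 nt, 77 reads: taggataaggtgtttaggtagc
mouse mt-Tq, 39 nt, 65 reads: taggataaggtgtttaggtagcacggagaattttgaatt
These are the 3 most abundant mouse sequences and share their first base with the rat fragments shown above.

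**Figure D3:**
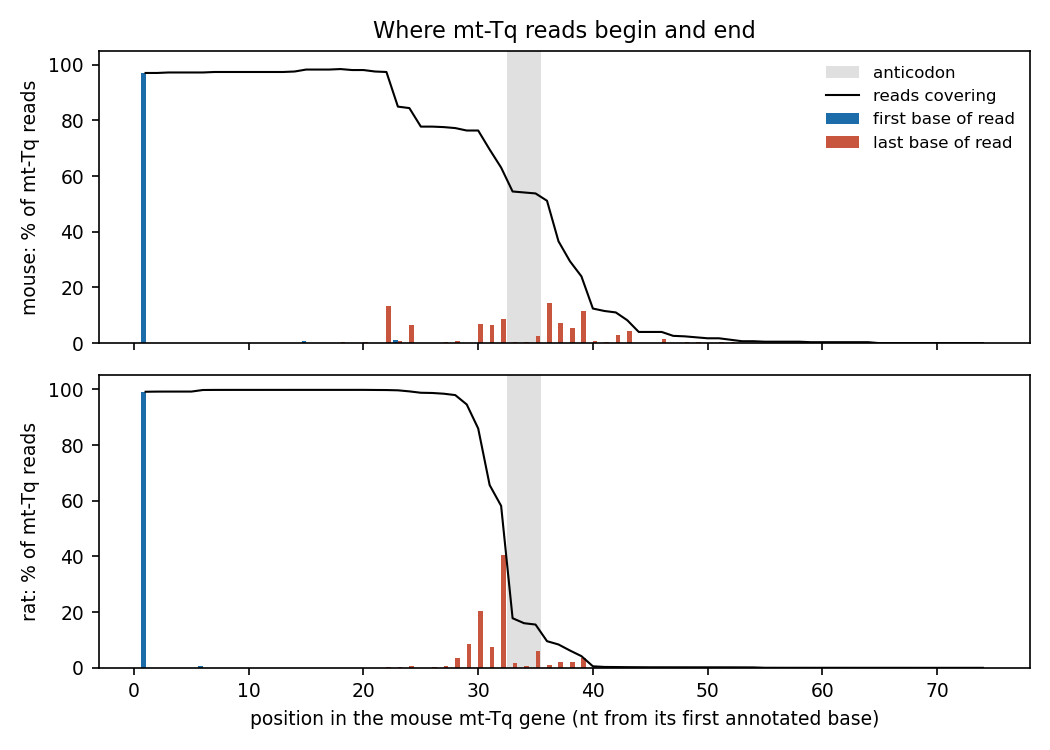
Share of mt-Tq reads with their first base (blue bars) or last base (red bars) at each position of the mouse gene, and share covering it (line); the grey band is the anticodon. Nearly all reads begin at the 5′ end in both libraries, and 59.4% of rat and 40.1% of mouse reads end in the anticodon loop.

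The rat methionine tRNA mt-Tm gave 5′ fragments of a narrow size. Of its 1608 reads, 91.5% began at the 5′ end and 98.0% ended in the anticodon loop (bases 29 to 35). Lengths of 30 and 31 nt had 593 reads each and 29 nt had 263. The anticodon was inside 1.80% of the reads. The 18 mouse mt-Tm reads lay inside the gene: 0 of them began at the 5′ end, and the leading sequence covered bases 9 to 32 with 5 reads. The size and the place of the listed mt-Tm fragments thus differed between the libraries, on few mouse reads. The entries differed as well: 17 of the 18 mouse reads were listed by piRNA entries and 1593 of the 1608 rat reads by mRNA entries. Whether the entries set the size and place of the listed reads was not tested.

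The valine tRNA mt-Tv was read in its middle in both libraries. In the mouse, 63.0% of its 54 reads were internal, 29.6% began at the 5′ end and 9.26% reached the 3′ end. In the rat, none of 468 reads was placed at the first base: 187 began at bases 5 and 6 and 37.2% at bases 18 to 24. The anticodon was inside 53.7% of mouse and 83.1% of rat reads. The sequence of 22 nt at bases 21 to 42 led in both, with 7 mouse and 57 rat reads. The genes mt-Tm and mt-Tv were placed by the mouse sequence, and a rat 5′ end that differs strongly from the mouse would be missed.

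**Figure D4:**
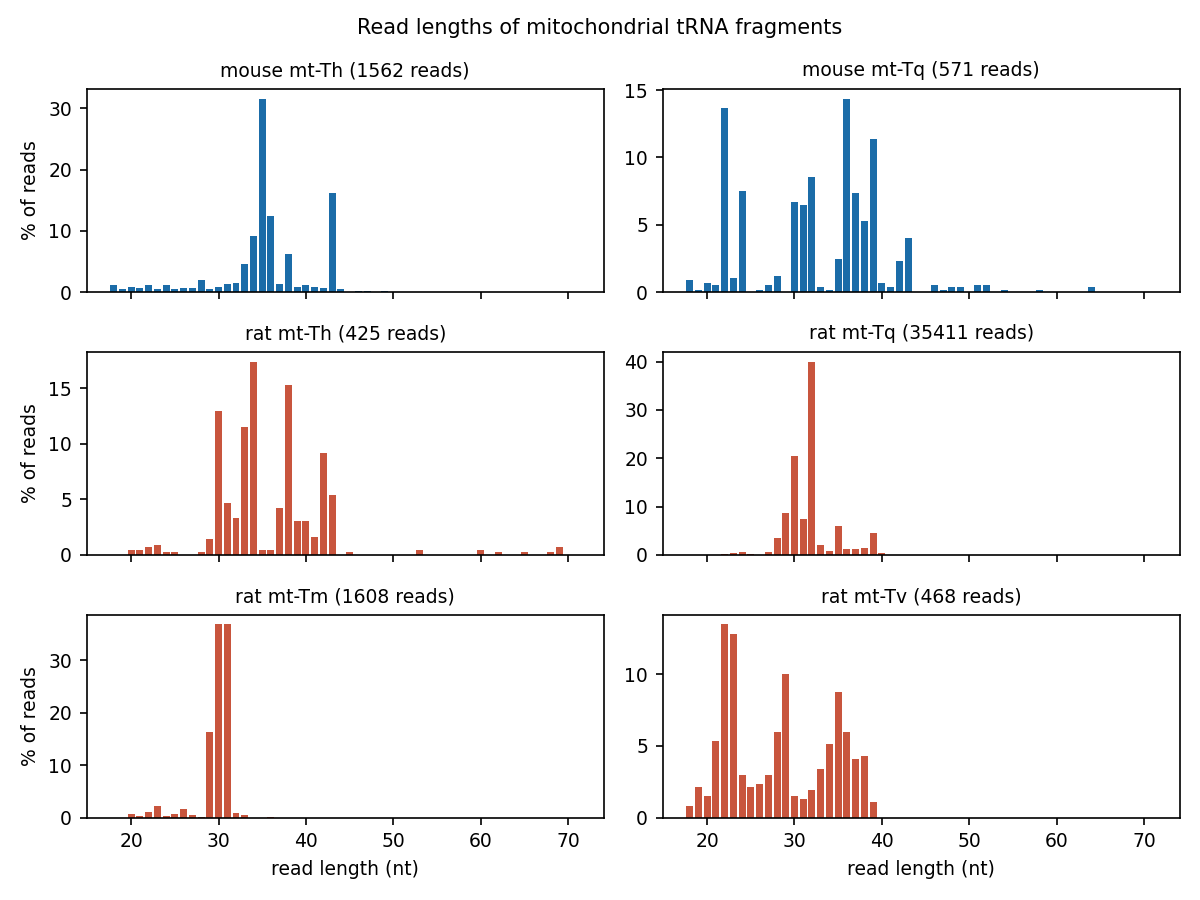
Share of reads at each length for mt-Th and mt-Tq in the mouse (blue) and mt-Th, mt-Tq, mt-Tm and mt-Tv in the rat (red). Mouse mt-Th peaks at 35 nt (31.6%) and 43 nt (16.1%), rat mt-Tq at 32 nt (14174 reads), and rat mt-Tm at 30 and 31 nt (36.9% each).

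The serine tRNA mt-Ts1 was represented among the listed mouse reads almost only by a single sequence. Of 367 reads, 366 were one sequence of 18 nt, the lower size limit of the library, at the 5′ end of the gene. The authors assigned it to an mRNA entry with 2 mismatches, while it matches mt-Ts1 with none. The listing allows at most 2, so a longer mt-Ts1 read with a further mismatch to that entry could not be listed by it. Whether longer mouse reads were left out in this way was not tested. In the rat, 21 reads were nearest mt-Ts1 within the edit limit, all at the 5′ end and of 21 to 32 nt. Counted by the rat's own first 18 bases, with at most 2 mismatches, 94 rat reads had that 5′ end, so the edit limit left most of them out. None of the 21 reads shared 18 bases with a rat read of mitochondrial label.

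The remaining listed genes had few reads. The lysine tRNA mt-Tk had 22 mouse reads, of which 54.5% began at the 5′ end, and 15 rat reads, of which 86.7% did. The glycine tRNA mt-Tg had 28 mouse reads, of which 78.6% reached the 3′ end, and 2 rat reads, both at the 5′ end. The alanine tRNA mt-Ta had 13 mouse reads, of which 76.9% began at the 5′ end, and 64 rat reads, all at the 5′ end. At these counts the intervals are wide: that of the mouse mt-Ta count runs from 6.92 to 22.2.

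The base at position 9 of many mitochondrial tRNAs, where it is A or G, is methylated by a complex of TRMT10C, and such a methyl group can cause a wrong base to be read. Mismatches were therefore counted at each of the first 18 positions of the 5′ fragments, against the consensus of the same library, in every gene with at least 20 such reads. For this count a read belonged to a gene when its first 18 bases differed from the gene's leading 5′ sequence in that library by at most 2, so the numbers of reads differ from those above. Positions are counted from the first base of the tRNA, which for mt-Th is the G that lies 1 base before the gene model. In rat mt-Tq, G9 was mismatched in 4167 of 35442 reads (11.8%, interval 11.4 to 12.1), and the other 17 positions had a median of 0.0339% and a maximum of 0.632%. Of all these reads, 7.25% had A, 2.05% C and 2.46% T at this position. The leading variants are shown with position 9 in capitals.
rat mt-Tq, G9A, 1001 reads: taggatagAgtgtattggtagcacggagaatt
rat mt-Tq, G9T, 376 reads: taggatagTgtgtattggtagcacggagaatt
rat mt-Tq, G9C, 292 reads: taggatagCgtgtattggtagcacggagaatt
In rat mt-Tq, the 3 bases other than G were all present at this position, and no other of the first 18 positions was mismatched at a comparable level.

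Rat mt-Ty and mt-Ta had high mismatch shares at position 9 as well, on fewer reads. In mt-Ty, G9 was mismatched in 53 of 215 reads (24.7%, interval 19.0 to 31.0), with 16.7% of all reads T. In mt-Ta, A9 was mismatched in 11 of 67 reads (16.4%, interval 8.49 to 27.5). In the mouse, A9 of mt-Th was mismatched in 10 of 28 reads (35.7%, interval 18.6 to 55.9), and G9 of mt-Tq in 15 of 777 reads (1.93%, interval 1.08 to 3.16). Mouse mt-Tv and mt-Tk had 2 mismatched reads each at A9, of 21 and 25. The mouse and rat intervals of mt-Tq do not overlap.

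Genes with C at position 9 had no such excess there among the listed reads. Rat mt-Tm had 2 mismatched of 1467 reads at C9 (0.136%), equal to the median of its other positions. In mt-Ts1, 0 of 405 mouse and 0 of 94 rat reads were mismatched at C9. Mouse mt-Ts1 was mismatched at position 8, in 22 of 405 reads (5.43%, interval 3.44 to 8.11), a larger share than that of G9 in mouse mt-Tq, whose next highest position, 2, had 1.16%. Rat mt-Th, with A at position 9, had 0 mismatched of 329 reads, which allows up to 1.11%, unlike mouse mt-Th. The authors' tables list sequences with at most 2 mismatches to an entry, and the extra G of rat mt-Th takes 1 of them. The leading mouse mt-Ts1 sequence already had 2 mismatches to its mRNA entry. A read of it with a further mismatch to that entry could not be listed. The mouse 0 at C9 of mt-Ts1 therefore gives no measure, and its value at position 8 is limited in the same way.

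**Figure D5:**
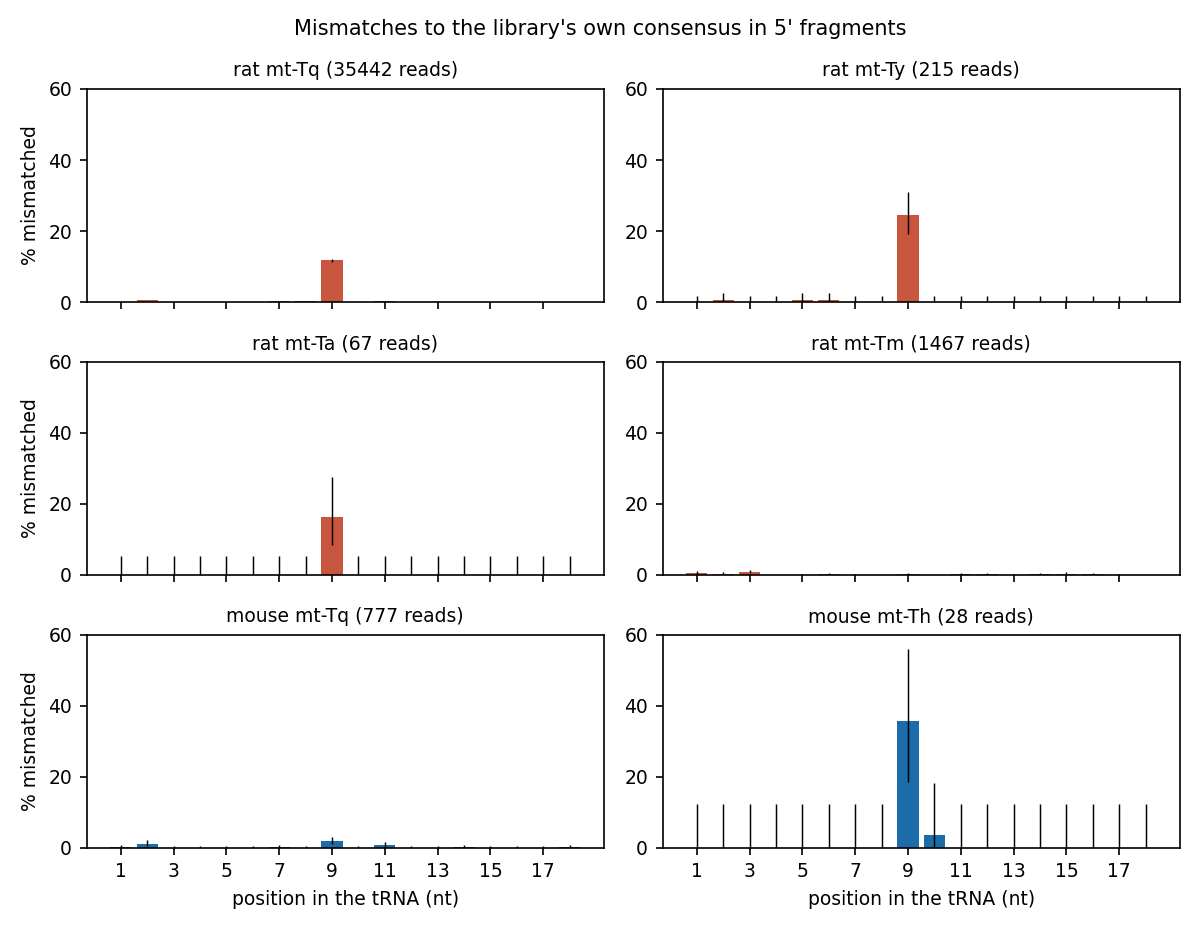
Share of 5′ fragments whose base differs from the library's own consensus at each of the first 18 positions of the tRNA, with exact 95% intervals, for 4 rat (red) and 2 mouse (blue) genes. Position 9 reaches 11.8% in rat mt-Tq, 24.7% in rat mt-Ty, 16.4% in rat mt-Ta and 35.7% in mouse mt-Th, and 0.136% in rat mt-Tm and 1.93% in mouse mt-Tq.

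Some 5′ fragments ended in bases that do not continue the tRNA. Among mouse mt-Tq reads that matched the consensus over at least 18 bases, 536 matched it to the end and 158 ended in 1 to 3 unmatched bases (22.8%, interval 19.7 to 26.1), and these were A only in 90.5%. In rat mt-Tq, 4.18% did (3.95 to 4.41), with A only in 79.7%. Rat mt-Tm had 3.88%, of which 35.2% were A only and 29.6% T only, and rat mt-Th had 0 of 316. Rat mt-Ty had 0.671%. Mouse mt-Ts1 had 0 of 366, which gives no measure. Its reads of 18 nt end where the required match of 18 bases ends. In mouse mt-Th, 2 reads matched to the end and 5 ended in an unmatched A. The leading sequences of this kind are shown with the unmatched base in capitals.
mouse mt-Tq, 52 reads: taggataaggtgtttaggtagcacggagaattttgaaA
rat mt-Tq, 298 reads: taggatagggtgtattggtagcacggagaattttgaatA
The count includes reading errors in the last 3 bases and misses added bases that are the same as the next base of the tRNA. It is also limited by the listing of at most 2 mismatches to an entry, of which the extra G of rat mt-Th takes 1.

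Reads with the added CCA were rare among those listed. In the mouse, 42 of 2724 reads carried part of the added CCA (1.54%): 9 the whole of it, 31 CC and 2 C. In the rat, 2 of 38339 reads did. These counts are limited by the listing of at most 2 mismatches to an entry. The leading mouse mt-Tg and mt-Tk sequences both end in CC and already had 2. Reads with the whole CCA could thus be left out where the entry lacks it, and how many were is not known. The rat reads also had to match the 3′ end of the mouse gene within the edit limit. Reads that run across the border between a tRNA gene and its neighbour, as in the uncut precursor, were sought in the mouse at the 21 of 44 borders whose neighbour is in the annotation. There were 3 such reads, which overlapped the tRNA gene by at most 1 base.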

How the data were processed

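The deposited values are read counts per distinct sequence, with strand, database entry and mismatched bases (up to 2 in number), per the file headers. Bowtie (version 0.12.7) was used and mm9 and rn5 are given as builds without a role, per the submitters' processing notes. For adapter trimming and the choice among several entries, nothing was given in the sources used here. Sequences on the minus strand were turned back to the read. Mouse sequences were matched exactly to the 22 mitochondrial tRNA genes of GENCODE M21 with CCA added, and rat sequences with edlib 1.3.9.post1 to the nearest of the 37 mouse mitochondrial genes allowing edits in up to 15% of the bases. The matching was tested on simulated fragments. Intervals were computed with scipy 1.17.1 at 95%. The limit for a count of 0 is 3 counts.

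In the mouse table, 2535 lines have a month in place of the identifier and no count, and were left out. Some identifiers, which rank the sequences by count, are not listed (78279 mouse and 63001 rat), and all shares are of listed reads. The labels give 18 to 45 nt, and a few listed reads are longer.

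The genes, lists and rules were chosen with earlier results of these data known. All 8 listed genes, the other genes from 10 reads in either library, and the most abundant sequences are named. The windows along mt-Th, mt-Tq, mt-Tm and mt-Tv, the mismatches at position 9, the extra G and the unmatched 3′ bases were chosen after values were seen. Alternatives covered the match limit, the labels, minimum counts, the restored months, CCA, weights by sequence and definitions of the ends. The strand of the mitochondrial reads rests on the strand column.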

Additional observations from a re-analysis of the deposited data

Results flagged for a closer look

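Mouse reads antisense to mt-Tp, the proline tRNA, lie outside the sense-only rule and were more frequent than the sense reads of that gene. Within the edit limit there were 198 antisense reads (interval 171 to 228), of which 193 matched exactly, beside 13 sense reads. One sequence of 36 nt, labelled as tRNA by the authors, held 182 of them and is the complement of bases 32 to 67 of the gene, its 3′ end.
mouse antisense mt-Tp, 182 reads: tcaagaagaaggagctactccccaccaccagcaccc
The rat library had 6 antisense reads to all 22 genes together, and none to mt-Tp. The orientation rests on the deposited strand column, and the cause was not tested.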

How the results depend on the processing

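Of 31 alternatives to 6 results, 25 moved the value beyond its counting interval and 6 did not, and the causes were not tested except where the rule itself removes sequences. The mouse share of listed reads (0.394%) was 0.472% with at most 2 mismatches, 0.477% with edits, 0.335% with tRNA or mitochondrial labels only, 0.348% and 0.127% for sequences of at least 10 and 100 reads, and 0.414% with the months restored as counts. The rat share (1.82%) was 1.30% with edits of up to 10%, 0.105% with at most 2 mismatches to the mouse gene, 0.0170% with exact matches, 0.0596% with tRNA or mitochondrial labels only, 1.94% and 2.14% for sequences of at least 10 and 100 reads, and 1.84% with sequences that share the rat 5′ start, which was added after seeing the data. The rat share was thus below that of the mouse under the strict rules, which leave out the rat mt-Tq fragments with their 3 substitutions, and with tRNA or mitochondrial labels only. The mt-Th share in the mouse (57.3%) was 53.8% with at most 2 mismatches, 54.1% with edits and 53.1% by distinct sequences. The mt-Tq share in the rat (92.4%) was 90.4% with edits of up to 10%, 3.26% with at most 2 mismatches, 56.2% by distinct sequences, 94.0% for sequences of at least 10 reads and 88.9% without the most abundant sequence. The share of mouse reads ending past the gene's midpoint (74.1%) was 87.5% by distinct sequences, 85.6% without the mt-Ts1 sequence, and 4.19% where the last base had to be in the last 3 bases or CCA, a definition added after seeing the data. The share of rat reads beginning at the 5′ end (97.3%) was 68.4% by distinct sequences. The rat table has no lines without a count, so restoring them changes nothing there. A search of the whole genome was not run, and mouse sequences were compared with transcripts and with the authors' tRNA-labelled reads only. No paired analysis was possible because there is 1 library per species. The mouse mt-Tm, mt-Tk, mt-Tg and mt-Ta counts and the rat mt-Tg count of 2 are limited by depth.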
